A study of Homo sapiens with 16 samples.

Results

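The clustered protocadherins were followed as the 52 rows of the RNA table, of 19333 in all, that lie on the plus strand of chromosome 5 between positions 140165876 and 140892546 of the genome build hg19. They were chosen by position alone and fall into an alpha cluster of 15 rows, a beta cluster of 16 and a gamma cluster of 21. For comparison, the RefSeq annotation (GRCh38) lists 15 protein-coding alpha genes, 16 beta genes and 22 gamma genes. RNA was measured by total RNA-seq, after removal of ribosomal RNA, in HEK293 cells, an established human embryonic kidney line. One group of 2 libraries came from cells transfected with a scramble negative control RNA, and the other group of 2 libraries from cells transfected with siRNA against Top1, called Top1 KD. Top1 is DNA topoisomerase I, the enzyme that relaxes the DNA supercoils left by transcription. Both groups were of the same line and received the same double transfection. Which of the study's Top1 siRNAs these libraries received was not given in the sources used here.

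Clustered protocadherins are cell-surface adhesion proteins of the cadherin superfamily, best known in neurons, where each cell expresses its own small choice of them and uses the combination to tell its own branches from those of other cells. In the alpha and gamma clusters each gene has a variable first exon with its own promoter, which is spliced to a few constant exons at the far end of the cluster, so that all genes of a cluster end at the same place. Beta genes consist of a single exon each and share no constant exons. The insulator protein CTCF acts at clustered protocadherin promoters, many of which hold a short conserved element containing the letters CGCT.

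That element shows how alike the promoters of a cluster are, and it is printed here for a few genes of each cluster because the beta genes were the ones with RNA values to follow. The sequences are from RefSeq (GRCh38.p14), in windows from 250 bases before the gene start to 50 bases from the start on, with the shared 8 letters in capitals. They are given by gene name, and could not be tied to rows of the RNA table, which carries only Ensembl transcript identifiers, of which 0 matched a name. In 4 beta genes the element was as follows.
PCDHB2 (chr5:141094540-141094579): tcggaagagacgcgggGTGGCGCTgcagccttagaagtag
PCDHB4 (chr5:141121719-141121758): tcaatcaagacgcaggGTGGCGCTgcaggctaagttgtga
PCDHB10 (chr5:141192295-141192334): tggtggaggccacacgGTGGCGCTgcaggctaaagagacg
PCDHB15 (chr5:141245310-141245349): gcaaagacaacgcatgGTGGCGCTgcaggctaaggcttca
In 3 alpha genes other letters preceded the same CGCT.
PCDHA2 (chr5:140794777-140794816): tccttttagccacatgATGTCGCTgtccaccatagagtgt
PCDHA6 (chr5:140827893-140827932): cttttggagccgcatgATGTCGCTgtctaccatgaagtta
PCDHA8 (chr5:140841126-140841165): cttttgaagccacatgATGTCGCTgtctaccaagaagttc
In 3 gamma genes the CGCT stood inside another form.
PCDHGB5 (chr5:141397861-141397900): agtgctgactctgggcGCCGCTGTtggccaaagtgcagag
PCDHGA9 (chr5:141402712-141402751): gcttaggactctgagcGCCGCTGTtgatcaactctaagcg
PCDHGC3 (chr5:141475878-141475917): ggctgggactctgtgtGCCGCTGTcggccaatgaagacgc

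All 10 windows lie on the plus strand. Counting either strand, GTGGCGCT (reverse complement AGCGCCAC) was present in 13 of 14 beta promoters, the exception being PCDHB1, in 0 of 13 alpha promoters and in 0 of 25 gamma promoter entries, and in 1.15% of all 35116 promoter entries. ATGTCGCT (AGCGACAT) was present in 9 of 13 alpha promoters, in no beta or gamma promoter, and in 0.234% of all entries. GCCGCTGT (ACAGCGGC) was present in 13 of 25 gamma entries, which stand for 20 genes, in no alpha or beta promoter, and in 1.63% of all entries. Each of the 3 forms contains CGCT, which by itself was present in 70.0% of all entries and so marks no family. The beta form lay between 1 and 83 bases before the gene start, with a median of 65. The alpha form lay 42 to 85 bases before the start and the gamma form 42 to 222. The largest gamma distances, 222 in PCDHGB1 and 208 in PCDHGC4, belong to further start entries of these genes. The same sites lie 60 and 64 bases before the other listed starts, and each is counted under both entries. The 3 forms were chosen after these sequences had been looked at, so their shares describe the families and test nothing. PCDHA3, PCDHA13, PCDHB6, PCDHB11, PCDHGA12 and PCDHGC5 were not analysed here.

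The 4 libraries held between 14681774 and 18366226 reads on genes, and values are normalized counts, that is reads divided by a size factor of the library, with 1 read worth 0.880 to 1.08. Of the 19333 rows, 13086 reached 10 normalized counts in 2 or more libraries and were tested with limma on the log2 of the normalized count plus 1. Calls needed a Benjamini-Hochberg adjusted p under 0.05 together with a 1.5-fold change or more, which held for 508 rows higher and 558 lower in Top1 KD. The row of TOP1 itself could not be found by name, so the depletion was not checked here, nor were markers of the cell line. The authors report that they checked the knockdown by Western blot and by RNA-seq. The submitters describe their samples as different passages of the line but not how the 2 libraries of a group were grown, so p-values measure only the spread between these samples, which may be technical.

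Of the 52 protocadherin rows, 36 were listed at 0 in all 4 libraries and 16 had reads. The beta cluster held 15 of those 16, and the gamma cluster 1. All 15 alpha rows, 20 of 21 gamma rows and 1 of 16 beta rows were at 0. A count of 0 allows up to 0.163 to 0.204 reads per 1000000 reads on genes in a library (3 reads), and floors and intervals given here cover counting error only.

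The zeros followed the way the rows lie over each other. In the alpha cluster, 14 of 15 rows ended at position 140391929, up to 15 rows lay over the same base, and 217 of the 226 kb from the first start to the last end were under at least 2 rows. In the gamma cluster, 19 of 21 rows ended at position 140892546, and 174 of 182 kb were under at least 2 rows. The 16 beta rows had 16 different ends, spans of 2533 to 4813 bases, and no overlap with any other row on either strand.

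**Figure D1:**
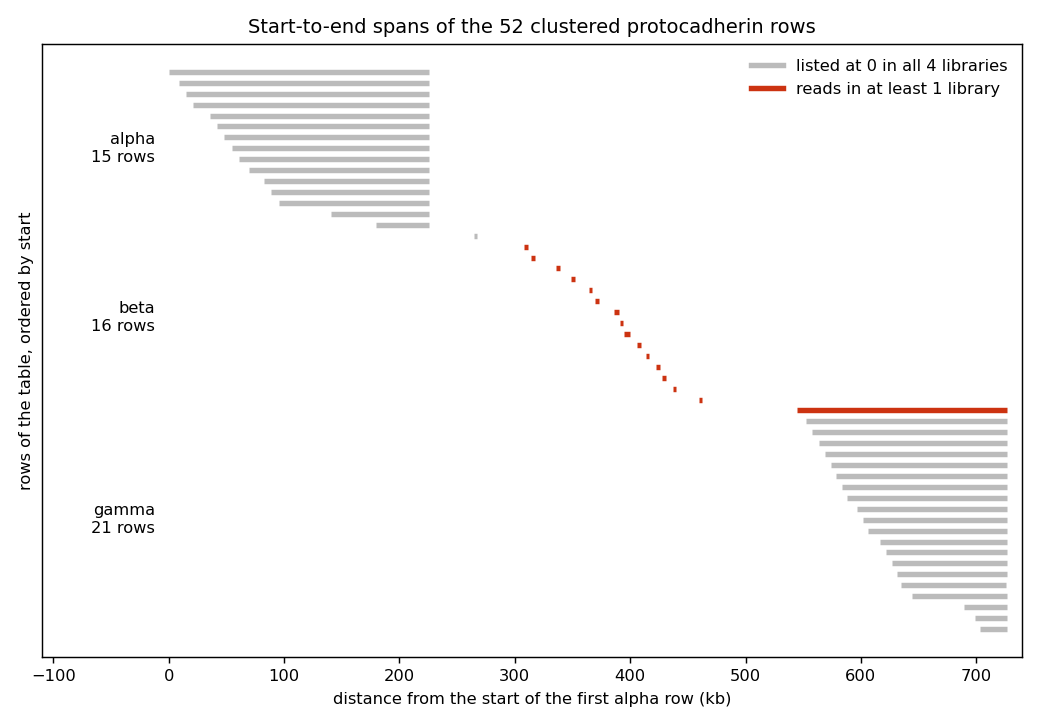
Start-to-end spans of the 52 rows, with distance from the first alpha start in kb along the horizontal axis and 1 line per row, ordered by start. Grey rows were listed at 0 in all 4 libraries and red rows had reads. The 15 alpha and 21 gamma spans are nested and nearly all grey, with the first gamma row in red, while the short beta spans lie apart and 15 of 16 are red.

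A row with no base to itself was at 0 without exception. All 13 alpha rows and all 20 gamma rows whose whole span was covered by other rows of their strand were at 0. The same held for 253 of 253 such rows outside the clusters, and so for 286 of 286 in the whole table. The first gamma row has 8287 bases under no other row and was the gamma row with reads. The first alpha row has 8674 such bases and was at 0 nevertheless, as was the last alpha row, with 7.

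Spans covered only when the opposite strand was included were nearly all at 0 too. Of 425 rows with bases of their own on their strand but none once both strands were counted, 423 were at 0. Rows with less than 5% of their span to themselves on their strand were at 0 in 63 of 115 cases (54.8%), against 3407 of 18509 (18.4%) where the whole span was their own. Over all rows the share at 0 was 19.7%. Rows that share their end with another row of the strand outside the protocadherin clusters were at 0 in 52 of 61 cases, among them 5 rows with a common end on chromosome 2.

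**Figure D2:**
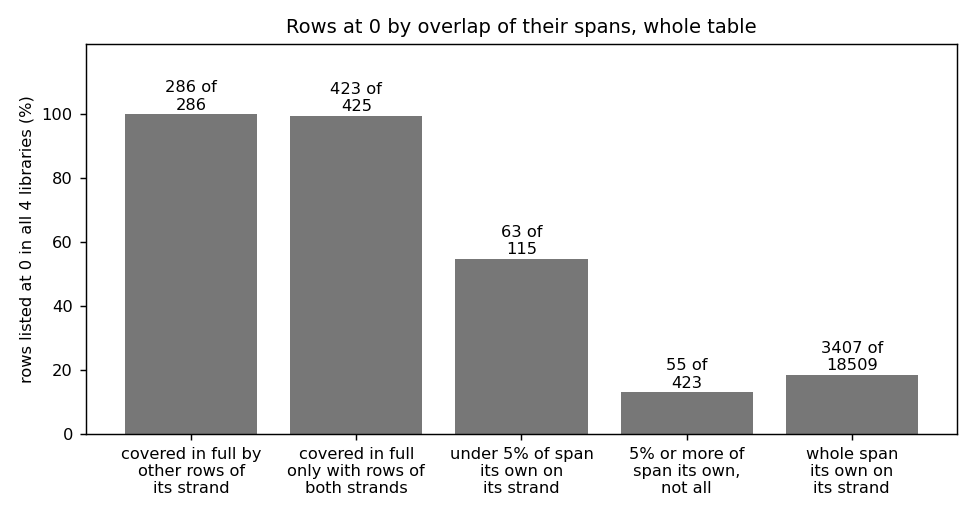
Percentage of rows listed at 0 in all 4 libraries (vertical axis) in 5 classes of rows of the whole table, by how much of the span is covered by other rows, with the counts above the bars. The share was 100% (286 of 286) where rows of the same strand covered the span in full and 18.4% (3407 of 18509) where the whole span was the row's own.

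How reads that fell on several rows, or on the opposite strand, were counted is not given in the sources used here. For the 13 alpha and 20 gamma rows without a base of their own, reads left uncounted and absence of RNA cannot be told apart, and their values of 0 are no measurement of expression. Alpha and gamma RNA can therefore be compared between scramble and Top1 KD cells only in the first gamma row and, at 0 in every library, the first alpha row.

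The beta cluster could be read row by row. Its rows are numbered here 1 to 16 in order of start, and this number is not that of a gene name. Beta genes resemble one another in sequence, and since the authors kept uniquely mapped reads, stretches identical between copies add nothing to these values. In bulk RNA, fewer cells with a transcript and less of it in each cell cannot be told apart.

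Row 12 (140579348 to 140582618) had the highest mean, with normalized counts of 61.9 and 58.1 in scramble and 93.1 and 83.4 in Top1 KD, that is 58, 66, 86 and 86 reads. Row 15 (140603078 to 140605858) had 34.1 and 14.1 in scramble and 71.4 and 60.1 in Top1 KD. Row 13 (140588291 to 140591696) had 43.7 and 15.0 against 48.7 and 50.4. In all 3 rows both Top1 KD libraries were above both scramble libraries, although in row 13 the gap between the groups was smaller than that between the scramble libraries. Together these 3 rows held 57.7% and 69.7% of the beta counts in scramble and 64.0% and 54.2% in Top1 KD. Per kb of span, the mean over the 4 libraries was 22.7 normalized counts in row 12, 16.2 in row 15 and 11.6 in row 13.

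The next rows had fewer counts. Row 9 (140557371 to 140560081) had 33.1 and 4.40 in scramble and 19.5 and 18.4 in Top1 KD, so both Top1 KD values lay between the scramble values. Row 6 (140529839 to 140532868) had 21.3 and 12.3 against 13.0 and 24.2, and its groups overlapped too. Row 2 (140474227 to 140476962) had 6.40 and 5.28 in scramble and 34.6 and 25.2 in Top1 KD, without overlap. Row 14 (140593509 to 140596993) had 12.8 and 1.76 against 0 and 16.5, so each group held a library near 0 and a higher one. Per kb of span these 4 rows had means of 6.95, 5.85, 6.54 and 2.23 normalized counts.

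Row 10 (ENST00000361016, 140560980 to 140565793), singled out after its values were seen, had no read in either scramble library and 17 and 34 reads in Top1 KD, or 18.4 and 33.0 normalized counts. The Top1 KD mean of 25.7 ± 10.3 normalized counts (SD, n = 2) was 8.79 times a floor of 3 reads per scramble library. That ratio leaves out the spread between libraries and is no lower bound on the change. Its mean per kb of span over the 4 libraries was 2.67 normalized counts.

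The other 8 beta rows did not pass the filter on low values. Row 1, the first by start, was at 0 throughout. Row 5 reached 27.1 normalized counts (28 reads) in one Top1 KD library, with 9.74 in the other and 3.20 and 2.64 in scramble. Row 3 had reads in 1 Top1 KD library alone, with 11.9 normalized counts. In rows 7 and 8 the 2 Top1 KD values lay below the 2 scramble values, with 10.7 and 4.40 against 2.16 and 0.969 in row 7, and 6.40 and 2.64 against 0 and 0 in row 8. Rows 4 and 11 stayed at or below 6.49. Row 16, the last by start, had 5.33 and 0 in scramble and 4.33 and 12.6 in Top1 KD. These 8 rows had at most 28 reads in a library, and none of the 7 with reads was called when the filter was dropped.

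**Figure D3:**
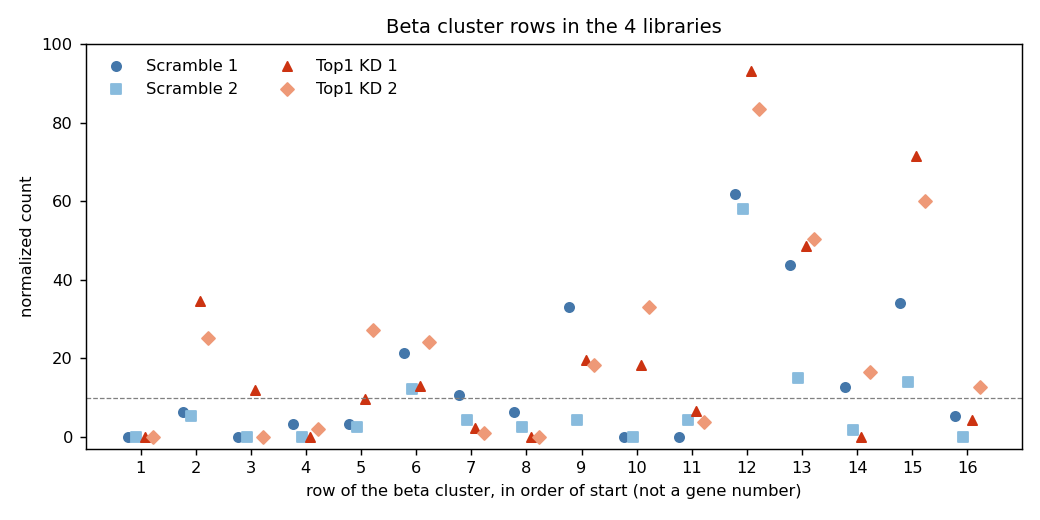
Normalized counts of the 16 beta rows (vertical axis), by row in order of start (horizontal axis), with 1 point for each of the 2 scramble libraries (blue) and the 2 Top1 KD libraries (red and orange). The dashed line marks the 10 normalized counts of the filter. Row 12 is highest, between 58.1 and 93.1, and row 10 is at 0 in both scramble libraries.

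None of the tested protocadherin rows was called by limma. The 9 tested rows, 8 beta and 1 gamma, gave 0 calls with limma, where 8.15% of all tested rows and 2.52% of tested rows with a mean under 100 normalized counts were called. At an unadjusted p under 0.05 with limma, 3 of the 8 beta rows passed (rows 2, 10 and 15), against 29.3% of all tested rows. Rows 2 and 10 had entered the test only through their Top1 KD libraries, so they had to be higher there. The share at this threshold was not taken for rows under 100 normalized counts alone. On the reads recovered from the table, edgeR and DESeq2 each called 1 beta row, row 10, as higher in Top1 KD, with 8.32% and 8.39% of all tested rows called.

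Row 10 had a log2 fold change of 4.68 (95% interval 1.11 to 8.25, SE 1.68) and a Benjamini-Hochberg adjusted p of 0.0742 with limma, 0.0183 with edgeR and 0.00303 with DESeq2. With a group at 0, these fold changes depend on the value added before the log and are no measure of size. Without the filter on low values limma called it as well, at an adjusted p of 0.0151, with 6.47% of all rows then tested called, as did edgeR (8.27% called) and DESeq2 (6.53% called). The call on this row therefore rests on the test and the filter.

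Row 15 had a log2 fold change of 1.53 (95% interval 0.19 to 2.87, adjusted p = 0.117 with limma) and row 2 one of 2.16 (0.08 to 4.25, adjusted p = 0.155). Row 13 had 0.92 (-0.49 to 2.33, adjusted p = 0.386) and row 12 had 0.55 (-0.37 to 1.47, adjusted p = 0.434). For row 12, the most deeply counted of them, the interval of the difference thus runs from a small decrease to a rise of under 3-fold. Rows 9, 6 and 14 had log2 fold changes of 0.56, 0.12 and -0.56, with limma adjusted p-values of 0.770, 0.947 and 0.878.

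**Figure D4:**
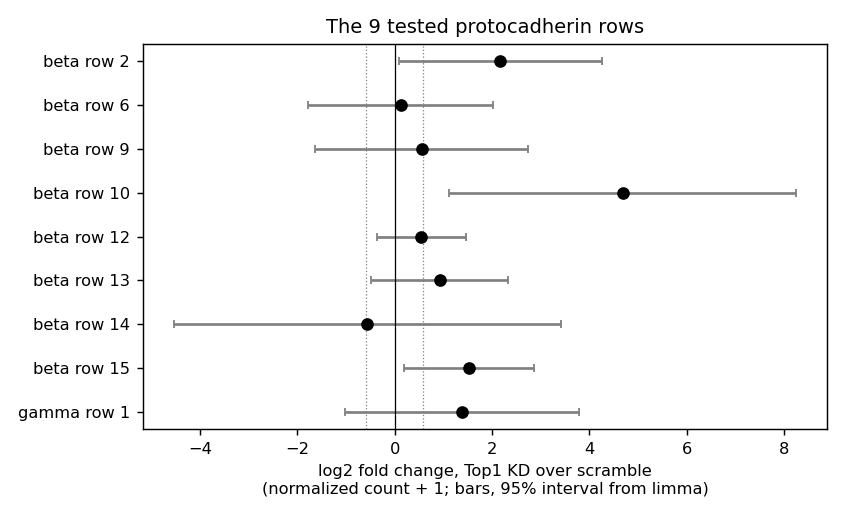
Log2 fold change, Top1 KD over scramble, on the log2(normalized count + 1) scale (horizontal axis) of the 8 tested beta rows and the tested gamma row, with limma's 95% interval as bars. Dotted lines mark 1.5-fold in each direction. The intervals of rows 2, 10 and 15 lie above 0, and that of row 14, from -4.54 to 3.42, is the widest.

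As a description, 7 of the 8 tested beta rows had a log2 fold change above 0, where 50.2% of all tested rows did, and their median was 0.74, against 0.0025 over all tested rows and -0.11 over tested rows with a mean under 100 normalized counts. In 5 of the 8 (rows 2, 10, 12, 13 and 15) both Top1 KD libraries were above both scramble libraries, and in 0 were both below. Over all tested rows these shares were 28.8% and 29%, and 17.7% of tested rows under 100 normalized counts had both Top1 KD libraries above. Rows 2 and 10 entered the test only through their Top1 KD libraries, so they had to be higher there. The 2 rows that were lower in both Top1 KD libraries, 7 and 8, were not tested. Nor was row 5, which was higher in both. These counts therefore describe the rows that passed the filter and not the cluster. Between libraries of the same group, 5 of the 8 rows differed by at least 1.5-fold in scramble and 3 in Top1 KD, as did 49.5% and 59.5% of all tested rows under 100 normalized counts.

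The sum over all 16 beta rows needs no filter. It was 242 and 125 normalized counts for scramble and 333 and 358 for Top1 KD, from 227, 142, 308 and 369 reads. Both Top1 KD libraries were thus above both scramble libraries, the lower of them by 1.38-fold over the higher scramble library. The means were 184 ± 82.9 in scramble and 346 ± 17.2 in Top1 KD (SD, n = 2), a ratio of 1.88, while the scramble libraries differed from each other by 1.94-fold and the Top1 KD libraries by 1.07-fold. The ratio between the groups was therefore no larger than that between the scramble libraries. Without row 10 the log2 ratio of the sums was 0.80 in place of 0.91. No test was made on this sum.

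As a share of each library, the beta rows took 14.9 (exact 95% binomial interval 13.0 to 16.9) and 7.73 (6.51 to 9.11) reads per 1000000 reads on genes in scramble. In Top1 KD they took 21.0 (18.7 to 23.5) and 22.4 (20.1 to 24.8). The intervals of the scramble libraries did not overlap each other, and those of the Top1 KD libraries did. In normalized counts, which are not scaled for length, the highest beta mean, 74.1 in row 12, was above 31.0% of the rows with at least 1 read, and the median of all tested rows was 542.

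**Figure D5:**
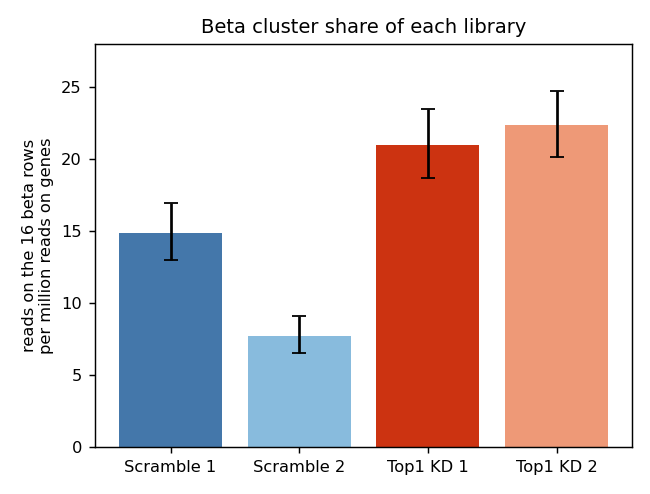
Reads on the 16 beta rows per 1000000 reads on genes (vertical axis, from 0) in each of the 4 libraries, with exact 95% binomial intervals for counting error as bars. The scramble libraries stand at 14.9 and 7.73 and the Top1 KD libraries at 21.0 and 22.4.

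In the gamma cluster the first row (ENST00000517417, 140710252 to 140892546) carried all the reads. It had 6.40 and 5.28 normalized counts in scramble (6 and 6 reads) and 13.0 and 21.3 in Top1 KD (12 and 22 reads), so the groups did not overlap. It passed the filter through the Top1 KD libraries alone, and its log2 fold change was 1.37 (95% interval -1.03 to 3.78, adjusted p = 0.457 with limma). Only 8287 bases, or 4.55% of its span, lie under no other row, and the table does not show which bases gave the reads, so its level was not compared with those of the beta rows. The last gamma row by start was at 0.

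The nearest rows around the clusters carried more reads than any member. The nearest row upstream (140079919 to 140086248) had 2322 and 2330 normalized counts in scramble and 2706 and 2554 in Top1 KD, a log2 fold change of 0.18 (adjusted p = 0.286 with limma). The nearest downstream (140894589 to 140998622, minus strand) had 2803 and 2917 against 3817 and 3538, a log2 fold change of 0.36 (adjusted p = 0.0252), under 1.5-fold. Of 3 minus-strand rows between the clusters' ends, 2 were at 0. One of them (140240341 to 140243224) lies wholly under alpha rows of the plus strand. For that row, reads left uncounted and absence of RNA cannot be told apart. The row with reads (140698057 to 140700330) had 2085 and 2280 against 2604 and 3051. Its log2 fold change was 0.37 (adjusted p = 0.0399 with limma), also under 1.5-fold. Of 28 tested rows within 1 Mb on either side, 2 were called higher and 0 lower, with a median log2 fold change of 0.15, where 3.88% and 4.26% of all tested rows were called higher and lower.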

How the data were processed

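Total RNA-seq of 2 scramble and 2 Top1 KD libraries was analysed. Samples of the other assays of the study were not used here. Quality control of single-end reads by the authors used fastq-mcf, and uniquely mapped reads were kept after TopHat2 2.0.5 had placed them on hg19. The labels also name HTSeq and DESeq2. The counting mode, strand setting and annotation release are not given in the sources used here. The deposited values are a signal, namely the read count of each row divided by the DESeq2 size factor of the library, not scaled for length. The authors' own comparison columns (call, mean, fold change, its error, statistic and p-values) were not used. All 4 value columns were matched to a library, and 0 were left over.

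Reads were recovered by dividing by the value of 1 read, which gave whole numbers within 0.1 for 100% of values. limma 3.58.1 (R 4.3.3, mean-variance trend) was fitted to log2(normalized count + 1) of the whole table without covariates, and p-values were adjusted over its 13086 tested rows. edgeR 4.0.16 called 1089 rows and DESeq2 1.42.0 called 1098 on the recovered reads. The fits were tested on simulated data. The members, the lists and the tests were chosen with earlier results of these data known. Named rows are those called, the 5 highest and the first and last of each cluster, and the nearest neighbours. Beta rows outside that rule are given so that every member is accounted for. Lists of partner genes need gene names and are not reported. Same-numbered libraries did not deviate together (correlation -0.01). This correlation cannot show whether they were grown as pairs, which is not described.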

Additional observations from a re-analysis of the deposited data

How the results depend on the processing

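With 1066 rows called in all, leaving out each library in turn gave 316 to 1329, the lowest without Scramble replicate 1 (424 without Scramble replicate 2). A looser fold threshold gave 1897, a 2-fold one 340 and none 1937. Adding the replicate number as a block gave 1085, with 0 beta rows called, but whether same-numbered libraries were grown as pairs is not described. The beta count of 0 became 1, always row 10, with edgeR, with DESeq2, without the filter on low values, and with edgeR (1283 rows called in all) and DESeq2 (1014) without it. These last 2 fits, and the beta sum without row 10, were added after the data were seen. Row 10's adjusted p ran from 0.00303 to 0.174 over all alternatives. Single libraries were left out with limma alone, which called no protocadherin row with every library in. These fits therefore cannot show whether the edgeR and DESeq2 calls of row 10 depend on a single library.

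The beta median of 0.74 ran from 0.34 to 1.77 and the beta log2 ratio of sums of 0.91 from 0.51 to 1.47 when each library was left out, both highest without Scramble replicate 1 and lowest without Scramble replicate 2. The gamma row's 1.37 ran from 1.04 to 1.71, and was 1.01 with a pseudocount of 5. The gamma log2 ratio of sums of 1.55 ran from 1.15 to 1.87. The log2 fold change of row 6 turned to -0.25 without Scramble replicate 2 and -0.30 without Top1 KD replicate 2 (range -0.30 to 0.55), and that of row 9 to -0.77 without Scramble replicate 2 (range -0.77 to 1.88). Row 14, at -0.56, turned to 0.22 with edgeR and 0.19 with DESeq2 (0.19 in both without the filter), and leaving out each library gave -2.63 to 1.502. The cause of these changes was not tested, and a lone library is assumed to vary like the other group. Of 118 alternatives for single members, 104 kept direction and side of the threshold, 5 became calls and 9 turned direction.

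The alpha medians and ratios, and the gamma ratio without its only row with reads, have no value. The beta rows had at most 86 reads in a library, and the 8 untested ones at most 28.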

Other observations

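Both rows called within 1 Mb of the clusters lay upstream of the alpha cluster and were higher in Top1 KD. The row at 139505521 to 139508391 of chromosome 5 had 43.7 and 58.1 normalized counts in scramble and 183 and 134 in Top1 KD, a log2 fold change of 1.61 (adjusted p = 0.0144 with limma). The row at 140044261 to 140051930 had 314 and 361 in scramble and 580 and 581 in Top1 KD, a log2 fold change of 0.79 (adjusted p = 0.0116 with limma). Neither row was matched to a gene name. Called rows were 2 of 28 tested there, against 8.15% of all tested rows.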
